A study of Americamysis bahia with 35 samples.

Results

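Of 22900 assembled genes measured in the mysid Americamysis bahia, 83 made up the group described here: genes higher at the highest concentration of both tire-wear particle leachates, but not raised in every lower exposure group. A gene belonged to the group when its mean level over the 35 libraries was at least 5 CPM (the gene's counts scaled to the library total), when all 5 libraries of un-weathered leachate at 1.08 g/L and all 5 of weathered leachate at 2.68 g/L lay above the highest control library, and when the median of at least 1 of the 4 lower exposure groups did not. In total 9252 genes reached the CPM minimum and 105 of these met the criterion at the highest concentrations. Of the 105, the other 22 had all 4 lower medians above the highest control library. Because these values chose the 83 genes, their levels against the control are given as a description, with no test.

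Mysids are small shrimp-like crustaceans of coastal water that are used as test animals in marine toxicology. Tire-wear particles are rubber fragments shed from tires on the road, and a leachate is the water in which such particles have lain and into which rubber additives and metals can pass. Crustaceans meet dissolved compounds in the water around them. The classes of genes known to answer such exposure include detoxifying enzymes, transporters, metal-binding proteins and chaperones. The deposited files pair no names with the Trinity identifiers of the assembled genes, so none of the 83 is assigned here to such a class, and the labelled tissue was not set against marker genes.

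The animals were juveniles with a labelled age of 5 days, exposed in the water for 96 h and fed brine shrimp (Artemia) nauplii. The salinity was 25 ppt in the control and in all exposed groups. Controls were kept in seawater with 0 g/L leachate. Un-weathered leachate (below: unweathered) was given at 3 concentrations, 0.27, 0.54 or 1.08 g/L, and the weathered one likewise at 0.67, 1.34 or 2.68 g/L. Each of the 7 groups had 5 libraries of poly(A) RNA from whole body tissue, with 18081325 to 28390588 estimated counts each. The labels do not say whether a library came from 1 animal, a pool or a tank, so the p-values below measure the spread between libraries, which may in part be technical. No concentration was shared by the leachates, so any difference between them is also a difference in concentration. In whole bodies, more cells that express a gene and more RNA per cell cannot be told apart.

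At the highest concentrations most of the 83 genes were moderately higher than in controls and a few were many times higher. The median ratio of group means to the control was 1.71 for unweathered leachate at 1.08 g/L and 1.61 for weathered leachate at 2.68 g/L. The ratio was at least 2 for 27 genes at 1.08 g/L unweathered and for 18 at 2.68 g/L weathered, 17 of them in both, and it was under 1.5 in both for 26 genes. Summed over the 83 genes, their share of all counts was 0.372 to 0.512% in the controls, 0.834 to 0.975% at 1.08 g/L unweathered and 0.711 to 0.908% at 2.68 g/L weathered. All 10 libraries at the highest concentrations thus exceeded every control in this sum, as the choice of the genes requires.

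**Figure D1:**
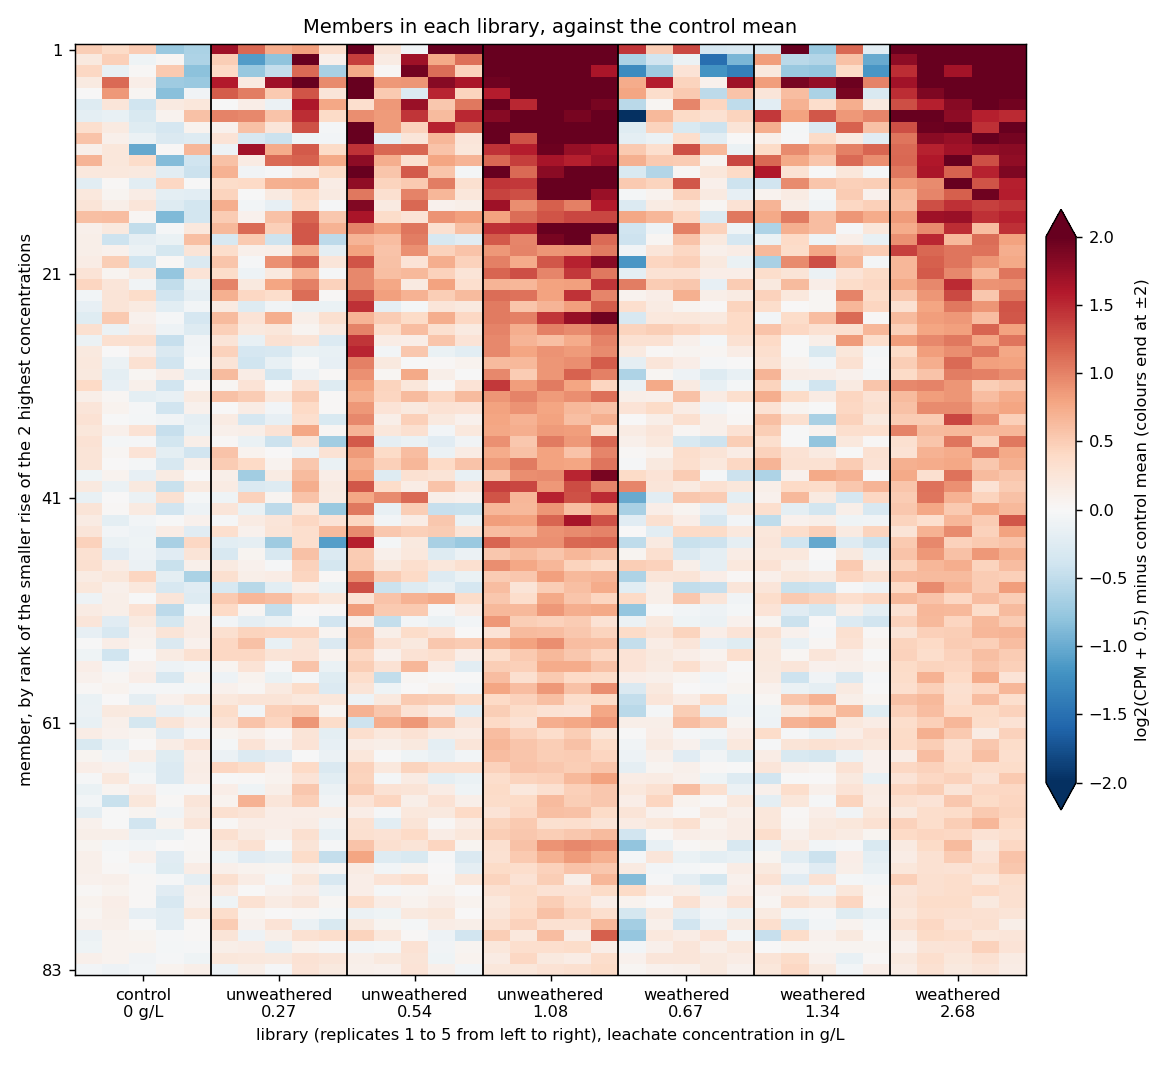
Each row is 1 of the 83 genes and each column 1 of the 35 libraries, grouped by leachate and concentration in g/L; colour gives log2(CPM + 0.5) minus the mean of the control libraries, with colours ending at ±2. Rows are ordered by the smaller of the differences from the control at the highest concentrations, and apart from those 2 groups the column with the strongest red is replicate 1 of unweathered 0.54 g/L, in which 75 of the 83 genes were above the highest control library.

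In the lower exposure groups the same genes were on the whole slightly higher than in controls. On the scale of log2(CPM + 0.5), the median difference of the 83 genes from the control mean was 0.16, 0.34 and 0.74 for the increasing unweathered concentrations. For weathered leachate it was 0.10, 0.18 and 0.67 in the same order. The median over all 9252 genes was -0.12, -0.13 and -0.01 for the unweathered concentrations and -0.16, -0.13 and -0.04 for the weathered ones. Scaling by library totals leaves this general shift in the lower groups. The controls in these differences are the libraries that chose the genes, and genes with low control values were more likely to be chosen, so a difference above 0 in a lower group is not read as an effect of exposure.

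The genes divided about evenly by how many lower groups had a median above the highest control library. It was 0 groups for 23 genes, 1 for 20, 2 for 17 and 3 for 23. To call the genes raised only at the highest concentrations thus goes beyond the data for 60 of them. For the 23 with no lower median above, it holds by this criterion and scaling only. A median that does not pass the highest control library does not show an unchanged level. These 23 had median log2 differences of -0.05 and 0.10 at the lower unweathered concentrations. At the lower weathered ones they had 0.01 and 0.04. The medians over all genes were negative in these groups. Those 23 had a median log2 difference of 0.62 at 1.08 g/L unweathered and 0.58 at 2.68 g/L weathered. The 23 genes with 3 lower medians above had 0.95 and 0.74 in the same groups.

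Medians above the controls were more frequent at the middle than at the lowest concentration of each leachate. The median was above the highest control library for 29 of the 83 genes at 0.27 g/L unweathered, where this held for 5.75% of all 9252 genes, and for 48 at 0.54 g/L unweathered (6.03% of all genes). For weathered leachate this held for 13 genes at 0.67 g/L (2.16%) and for 33 at 1.34 g/L (5.14%). At the highest concentrations, where the rule fixes it for all 83, the background was 13.5% for unweathered and 9.01% for weathered leachate. All 5 libraries were above every control for 4 genes at 0.27 g/L (0.432% of all genes) and for 16 at 0.54 g/L unweathered (0.508%). The same held for 1 gene at 0.67 g/L (0.13%) and 5 genes at 1.34 g/L weathered (0.313%), and by the rule for all 83 at 1.08 g/L unweathered (3.88%) and at 2.68 g/L weathered (1.68%). The rule itself uses these medians, so nothing is read from the counts against the background.

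The share of genes that counts as raised at the lower concentrations depended on how libraries were scaled. With trimmed mean of M-values (TMM) scaling, under which the medians over all genes lay between 0.01 and 0.04 in every exposed group, the median difference of the 83 genes was 0.28 and 0.47 at the lower unweathered concentrations and 0.30 and 0.32 at the lower weathered ones. Medians above the highest control library then numbered 49, 64, 46 and 51 of the 83 in these 4 groups, in the same order. Applying the whole rule to TMM-scaled values gave 62 genes, of which 37 were among the 83. Of the 46 lost, 21 no longer cleared the highest control library in all 10 libraries and 25 had all 4 lower medians above it.

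Unweathered replicate 1 at 0.54 g/L stood apart from its group. In this library 75 of the 83 genes were above the highest control library, against 41, 47, 46 and 27 in replicates 2 to 5. Its median log2 difference from the control mean was 0.76, against 0.16 to 0.29 in the others. It exceeded the lowest library of the 1.08 g/L group for 50 genes and the median library of that group for 27. It was also high over all 9252 genes, the 83 included. Of these, 20.1% lay above the highest control library in it, compared with 5.38 to 12.2% in the other replicates and 15.01 to 24.5% at 1.08 g/L. Its median log2 difference over all genes was 0.01, against -0.08 to -0.25 in the other replicates. The part of this general shift in the percentages was not tested. Without it, the median difference at 0.54 g/L was 0.24 and the number of medians above the highest control library 41. It is used as labelled.

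**Figure D2:**
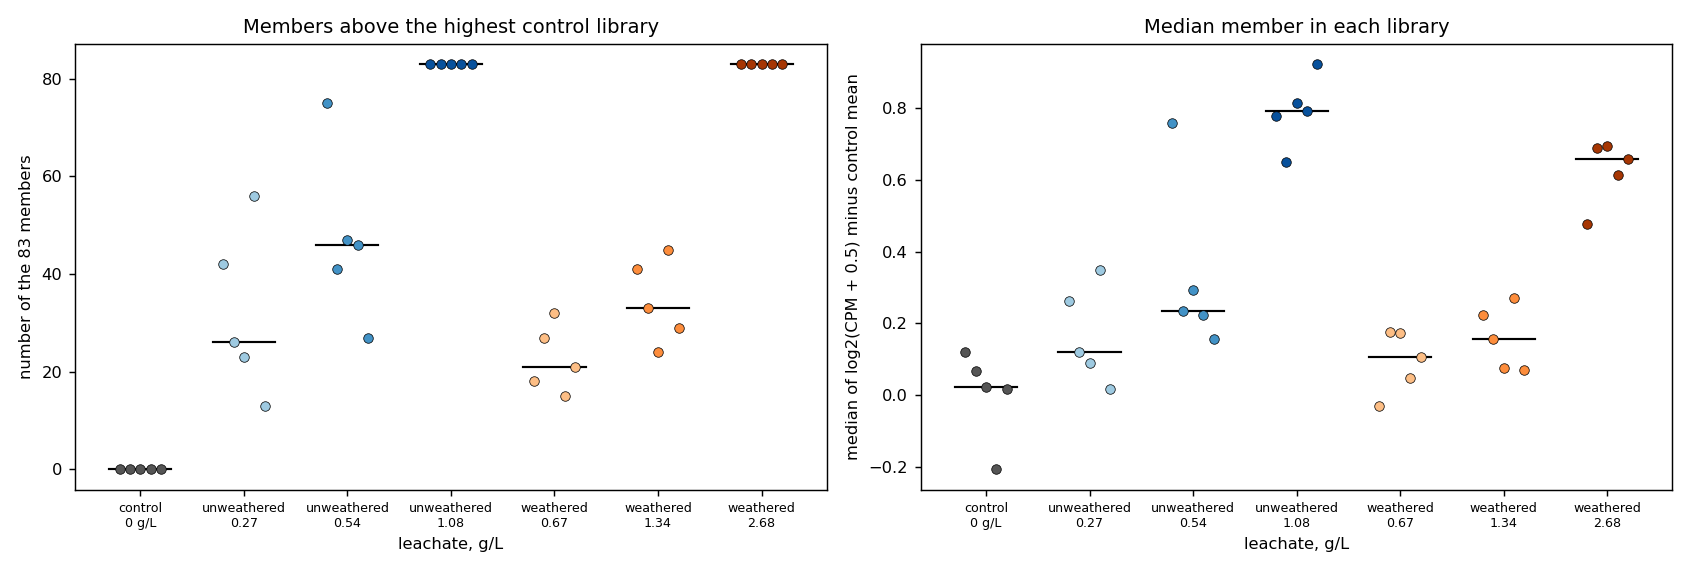
Each point is 1 library, with the leachate and its concentration in g/L on the x axis and a line at the group median; the left panel gives the number of the 83 genes above the highest control library and the right panel the median over the 83 genes of log2(CPM + 0.5) minus the control mean. The control and the highest groups are at 0 and 83 in the left panel because the rule fixes this; in the lower groups the counts run from 13 to 56 and 27 to 75 for increasing unweathered and from 15 to 32 and 24 to 45 for increasing weathered concentrations.

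TRINITY_DN2935_c0_g1 had the largest difference from the control shared by the leachates. Its level was 5.22, 4.83, 5.27, 1.94 and 2.12 CPM in control replicates 1 to 5. It was 54.1, 104, 232, 188 and 284 CPM at 1.08 g/L unweathered and 15.8, 42.9, 137, 70.5 and 129.8 CPM at 2.68 g/L weathered. The group means were 3.87 ± 1.69, 172 ± 93.3 and 79.3 ± 53.3 CPM (SD, n = 5), or 44.5 and 20.5 times the control. At 0.54 g/L unweathered the libraries held 110.1, 4.37, 3.38, 36.3 and 21.4 CPM, so that replicate 1 was at the level of the highest concentration and replicates 2 and 3 were within the range of the controls. At 0.27 g/L the values were 12.6, 8.54, 6.24, 6.73 and 4.62 CPM. Weathered leachate gave 10.5, 5.21, 9.71, 2.73 and 2.75 CPM at 0.67 g/L and 2.79, 20.5, 1.95, 8.50 and 3.01 CPM at 1.34 g/L, and both groups overlapped the controls.

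TRINITY_DN8241_c0_g1 followed it in the size of the shared difference. Controls held 8.30, 10.3, 6.73, 7.41 and 4.54 CPM. The values were 62.9, 42.1, 77.4, 74.0 and 35.7 CPM at 1.08 g/L unweathered and 26.1, 56.2, 48.1, 99.997 and 75.7 CPM at 2.68 g/L weathered. Its means of 58.4 ± 18.8 and 61.2 ± 28.02 CPM (SD, n = 5) were 7.85 and 8.22 times the control mean of 7.44 ± 2.10 CPM. At 0.54 g/L unweathered the values were 19.6, 8.17, 24.6, 12.6 and 16.0 CPM, and 4 of the 5 were above every control. At 0.27 g/L replicate 4 held 40.9 CPM and the others 3.06 to 10.3 CPM. Weathered leachate gave 4.46, 5.40, 6.58, 2.21 and 3.58 CPM at 0.67 g/L and 13.2, 4.81, 4.66, 11.1 and 3.35 CPM at 1.34 g/L. The mean at 0.67 g/L was 0.597 times the control mean, and the groups overlapped.

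**Figure D3:**
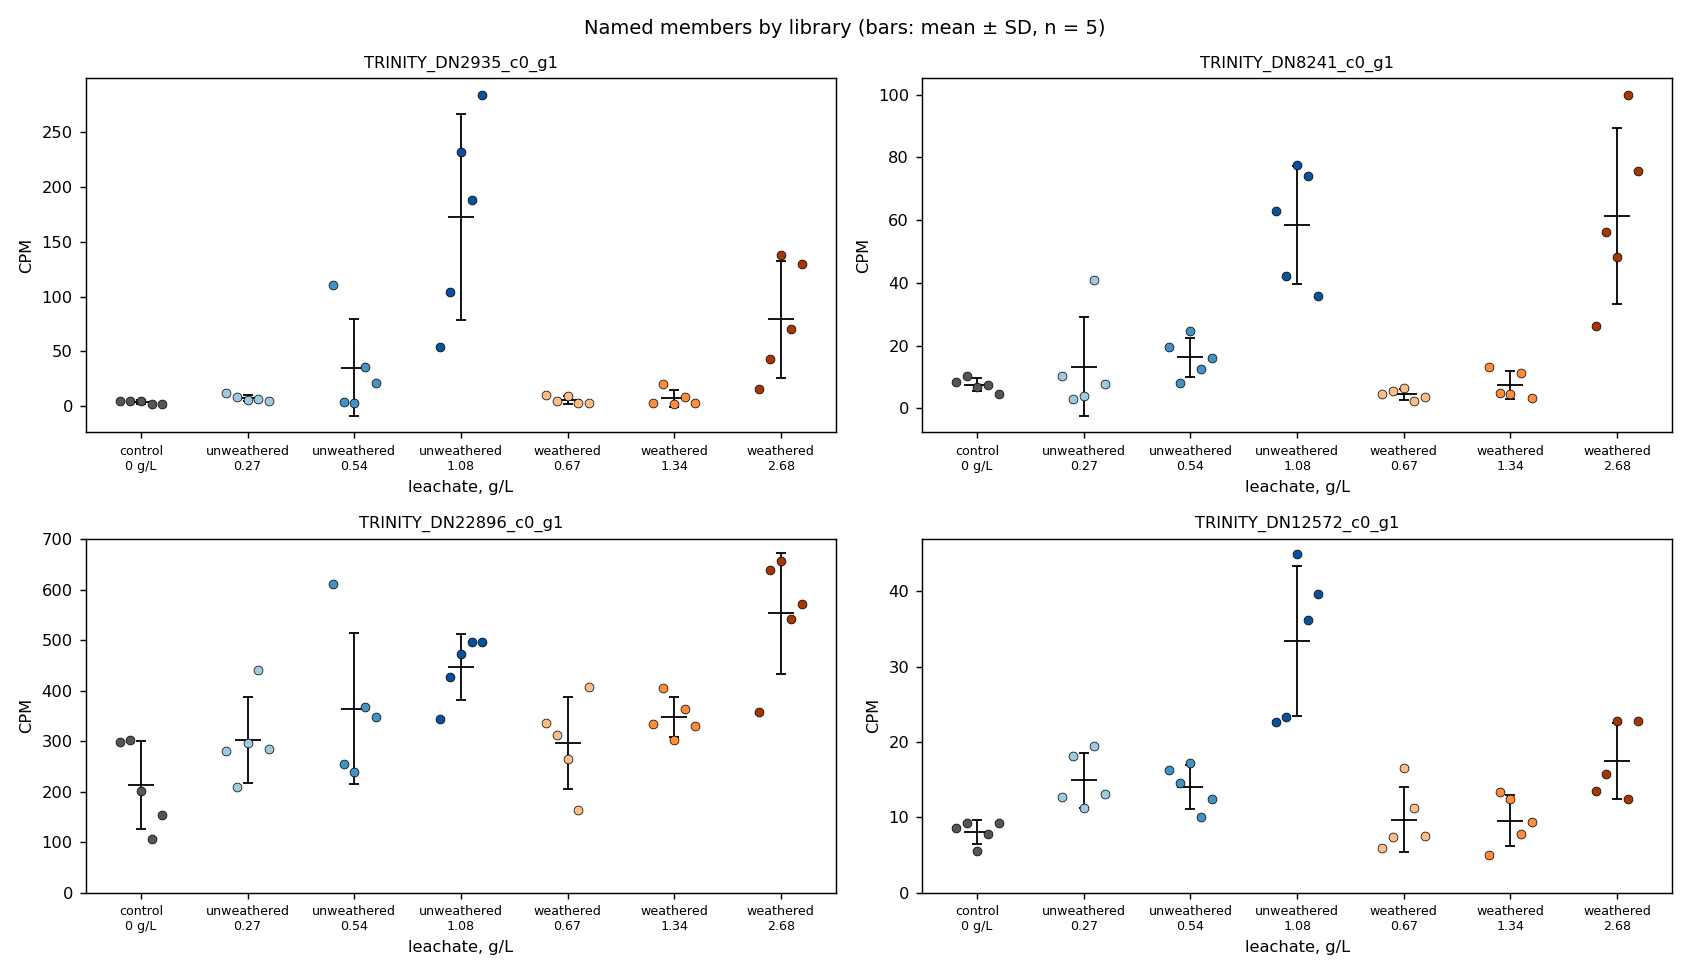
Levels in CPM of 4 of the 83 genes in every library, with the mean and SD of each group (n = 5) and the leachate concentration in g/L on the x axis. The upper genes have the largest differences from the control shared by the leachates; of the other genes, the lower panels show the highest and the lowest log2 fold change of weathered 2.68 g/L against unweathered 1.08 g/L, with TRINITY_DN22896_c0_g1 at means of 553 and 447 CPM and TRINITY_DN12572_c0_g1 at 17.5 and 33.4 CPM.

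The levels of the 83 genes spanned a wide range. Their mean level over all libraries ran from 5.43 to 411 CPM with a median of 29.0, against 17.1 for the other genes at or above the minimum. It was under 20 CPM for 33 of the 83 and at least 100 CPM for 21. Per transcript length, their median was 39.4 against 15.4 in the deposited TPM, a level scaled to length and library. The 5 most abundant had control means of 203 to 293 CPM and ratios of 1.86 to 2.65 at 1.08 g/L unweathered and 1.64 to 2.84 at 2.68 g/L weathered. Of these 5, 3 had 3 lower medians above the highest control library, 1 had 2 and 1 had 0. The lowest estimated count of any of the 83 genes in any library was 35, so each value rests on counted reads in every library.

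The leachates were compared with edgeR over 17990 genes, among them all 83. The rule did not use the difference between leachates, but it held both highest groups above the same controls and used the lower medians. Genes with a wide gap may therefore have been less likely to be kept, which was not tested. The values of the 83 in these comparisons are thus a description, and a lack of calls does not show that the leachates act alike. At the highest concentrations, weathered 2.68 g/L against unweathered 1.08 g/L, edgeR called 0 of the 83 at an adjusted p under 0.05, and 0% of all genes tested were called in either direction. At an unadjusted p under 0.05 it had 9 of the 83, all lower under weathered leachate, and 1659 of all genes. DESeq2 and limma-voom also called 0 of the 83. The median log2 fold change of the 83 was -0.10, with 56 below 0 and a range from -1.03 to 0.33, against a median of 0.02 over all genes tested. With 1 compared library left out, the median ran from -0.13 (without weathered replicate 3) to -0.04 (without weathered replicate 1). It was -0.06 without unweathered replicate 3 and -0.05 without weathered replicate 2. The 95% interval lay within 1 log2 unit of 0 for 70 of the 83. For the other 13 the interval reached further, and the concentrations compared were 2.48 times apart in g/L.

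The genes at either end of this comparison did not pass the test. TRINITY_DN22896_c0_g1 was highest under weathered leachate relative to unweathered, at 357, 639, 657, 542 and 572 CPM against 343, 427, 472, 497 and 497 CPM, with controls at 299, 302, 202, 107 and 153 CPM. Its log2 fold change was 0.33 (SE 0.25, edgeR adjusted p = 0.732). TRINITY_DN12572_c0_g1, after TRINITY_DN2935_c0_g1 the lowest, held 13.5, 15.7, 22.8, 12.4 and 22.8 CPM under weathered and 22.7, 23.3, 45.0, 36.1 and 39.7 CPM under unweathered leachate, with controls at 5.47 to 9.28 CPM. Its log2 fold change was -0.90 (SE 0.26, edgeR adjusted p = 0.338). For TRINITY_DN2935_c0_g1 it was -1.03 (95% interval -2.47 to 0.40, edgeR adjusted p = 0.695), and for TRINITY_DN8241_c0_g1 0.08 (-0.86 to 1.03, edgeR adjusted p = 0.977).

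At the lower concentrations edgeR called 0 of the 83 genes between the leachates. The medians of these groups chose the genes, and the rule keeps mostly genes that were not raised where few genes were, as at 0.67 g/L weathered, so the signs below are a description from which no direction is drawn. For weathered 1.34 g/L against unweathered 0.54 g/L edgeR called 0 of the 83 and 0% of all genes, 15 of the 83 and 1033 of all genes had an unadjusted p under 0.05, and 73 of the 83 were below 0, with a median log2 fold change of -0.13. DESeq2 and limma-voom called 0 of the 83 here as well. For weathered 0.67 g/L against unweathered 0.54 g/L, the nearest concentrations, edgeR called 0 of the 83 and 4 of all genes, all lower under weathered leachate (0.0222%, or 0.0216% of genes at or above the CPM minimum). Here 25 of the 83 and 1885 of all genes had an unadjusted p under 0.05, 63 of the 83 were below 0, and the median was -0.20 against 0.01 over all genes. DESeq2 called 6 of the 83 and 150 of all genes in this comparison, and limma-voom 0 and 16.

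Unweathered replicate 1 at 0.54 g/L, the library that stood apart, entered both of these comparisons. Without it the median of the 83 genes moved from -0.13 to -0.08 at the middle concentrations and from -0.20 to -0.08 at the nearest ones. TRINITY_DN2935_c0_g1 was at -2.21 with it and -1.25 without it at the middle concentrations, and at -2.36 and -1.40 at the nearest ones. Leaving out 1 of the other compared libraries moved this gene as far as -3.08 at the middle concentrations, without weathered replicate 2. The 22 genes that met the rule at the highest concentrations and had all 4 lower medians above the controls had medians of -0.06, -0.07 and -0.11 in the 3 comparisons, with 0 called. Whether the 83 differ from those 22 in this respect was not tested.

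**Figure D4:**
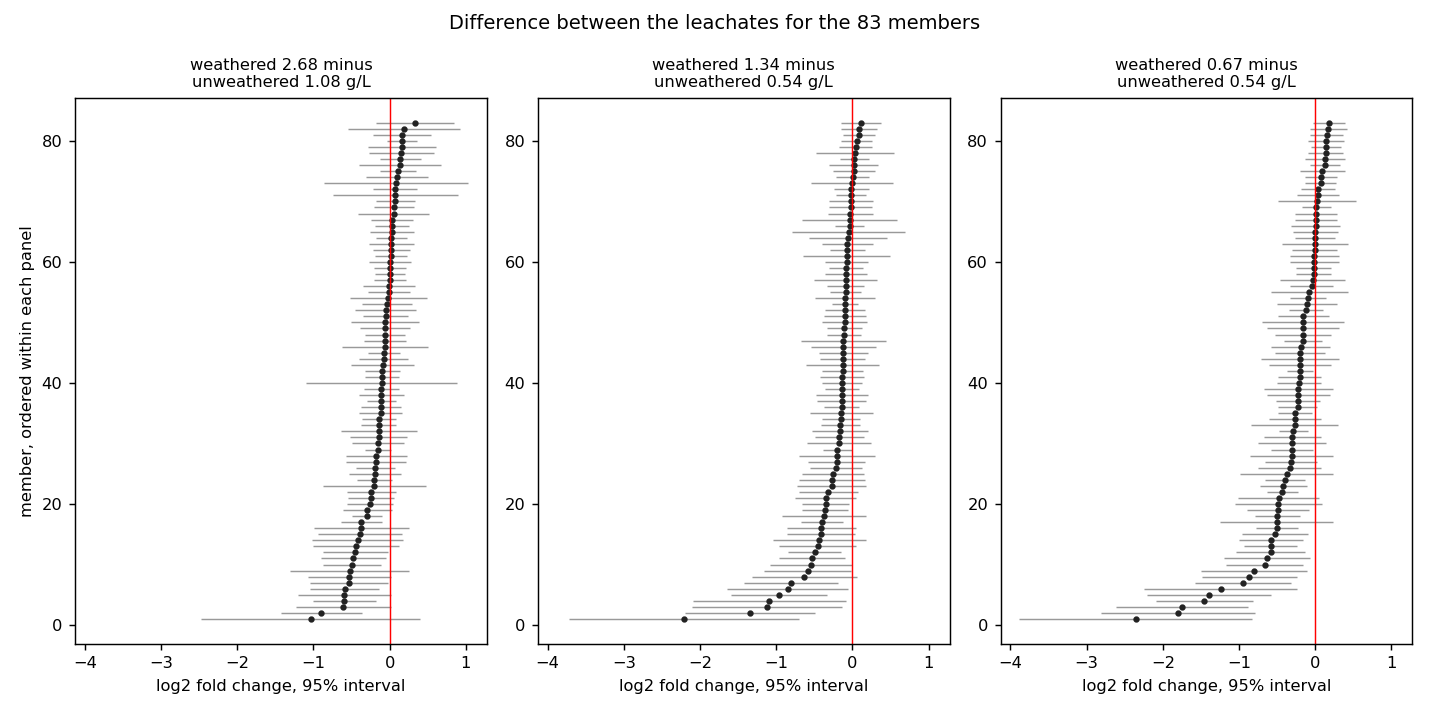
Log2 fold change (x axis) of weathered against unweathered leachate in edgeR for each of the 83 genes, ordered within each panel. Grey lines give the 95% interval derived from the test's F statistic. The panels show the highest, middle and nearest concentrations in g/L, and the red line marks 0. Genes below 0 number 56, 73 and 63 from the left to the right panel, and the lowest value is that of TRINITY_DN2935_c0_g1 in all 3, at -1.03, -2.21 and -2.36.

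Of the 83 genes, 37 had at least 2 isoforms with enough counts to follow the share of the leading isoform. The leading isoform is the one with the highest mean estimated count over all 35 libraries, exposed groups included. The rule summed isoforms, but the contrasts with the control are those that chose the genes, so the isoform shares are likewise a description. limma called 2 of the 37 at 1.08 g/L unweathered (0.201% of 3981 genes) and 1 of the 37 at 2.68 g/L weathered (0.1%). The genes called were singled out after their values were seen. Nothing is read from these calls against the share over all genes.

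The isoforms of TRINITY_DN734_c0_g1 were 1914 to 1920 bases long, and how reliably estimated counts were divided among them was not tested. As estimated, the difference of this gene from the control was mostly that of 1 isoform of 1915 bases, i20. Its share of the gene's counts was 6.74, 2.67, 7.35, 6.57 and 7.77% in the controls, 72.2, 68.5, 79.1, 69.7 and 82.7% at 1.08 g/L unweathered and 61.1, 71.1, 79.0, 65.7 and 66.4% at 2.68 g/L weathered. The exposed and control groups did not overlap. The isoform had a mean of 1.62 ± 0.58 CPM in the controls and of 119.6 ± 31.6 and 71.1 ± 31.9 CPM in these groups (SD, n = 5), while the other isoforms together were at 24.8, 39.3 and 29.9 CPM. Among the others, i1 held a mean share of 84.7% in the controls, 18.5% at 1.08 g/L unweathered and 23.5% at 2.68 g/L weathered. In the controls i1 was thus the main isoform, and i20 leads over all 35 libraries through its levels in exposed groups. In the lower groups the share of i20 was above all controls in every unweathered library, at 17.0 to 50.3% at 0.27 g/L and 36.2 to 74.7% at 0.54 g/L. Under weathered leachate the lower groups spread from 3.79 to 54.6% at 0.67 g/L and from 1.80 to 61.4% at 1.34 g/L and overlapped the controls. The summed level of the gene did not show this at 0.27 g/L, with 27.8, 39.2, 30.9, 63.6 and 25.3 CPM against 20.5 to 32.8 CPM in controls.

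In TRINITY_DN16678_c0_g1 the leading isoform, i9, had a lower share at the highest unweathered concentration. It held 93.7, 94.1, 95.3, 91.2 and 97.3% in controls and 79.0, 91.3, 87.0, 88.8 and 84.7% at 1.08 g/L unweathered, where the ranges overlapped by 1 library. At 2.68 g/L weathered it held 91.5, 90.1, 92.9, 90.7 and 87.0%, a call that limma did not make. The other isoform, i2, was at a mean of 10.04 CPM in controls, 42.2 CPM at 1.08 g/L unweathered and 23.4 CPM at 2.68 g/L weathered. The gene as a whole was at 171 to 185 CPM in controls, 266 to 335 CPM at 1.08 g/L unweathered and 221 to 279.9 CPM at 2.68 g/L weathered.

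**Figure D5:**
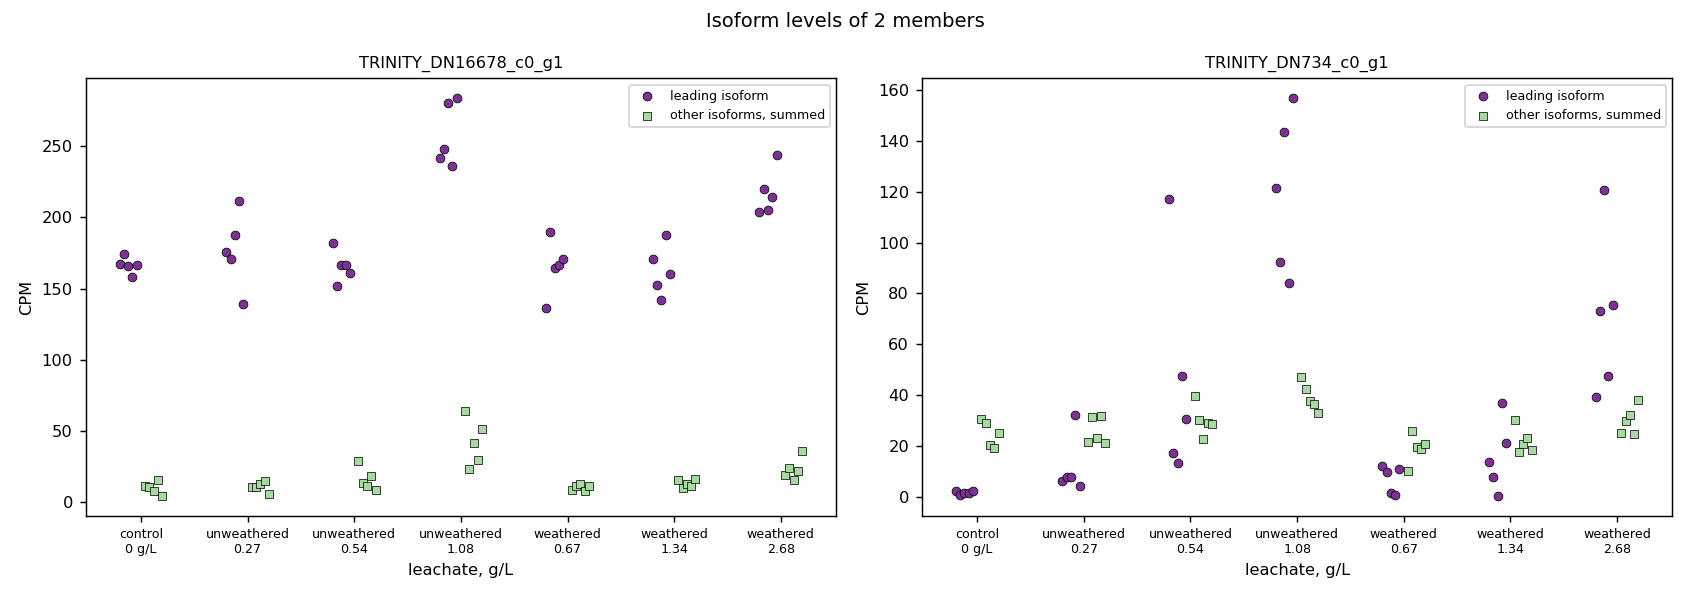
Level in CPM of the leading isoform (circles) and of the gene's other isoforms summed (squares) in each library, by leachate concentration in g/L, for TRINITY_DN16678_c0_g1 and TRINITY_DN734_c0_g1. The leading isoform is the one with the highest mean estimated count over all 35 libraries. In TRINITY_DN734_c0_g1 it is i20, with a mean of 1.62 CPM in controls and 119.6 CPM at 1.08 g/L unweathered. The others are at 24.8 and 39.3 CPM, of which i1, the main isoform in controls, makes up 22.3 and 28.5 CPM.

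Features other than the levels were compared with those of the other genes at or above the CPM minimum. The leading transcripts of the 83 genes had a median length of 1610 bases (522 to 14190), against 2085 for the other genes, and 46 of the genes had a single isoform (55.4%, against 55.1%). No pair of them came from the same assembly component, and 5 had another gene of their component in the files. Within groups, the deviations of 2 of the genes from their group means had a median Pearson r of 0.22 over the 35 libraries, against 0.20 for pairs of other genes, and their median SD was 0.27 log2 units against 0.23. Libraries share depth and composition, which enters all such correlations.

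Many of the genes met the criterion narrowly. The lowest library at the highest concentrations was less than 5% above the highest control library for 30 of the 83, at least 1.2 times it for 24 and at least 2 times for 3. The genes just inside this limit had ratios of 1.00159 and 1.0016, and those just outside 0.99996 and 0.99963. At the limit on lower medians, the closest genes had ratios to the highest control of 0.997 and 0.995 inside and 1.01 and 1.01 outside, and at the CPM minimum they had 5.43 and 5.67 CPM inside and 4.84 and 4.75 CPM outside. The same criterion of all 10 libraries above every control was met by 105 genes at the highest concentrations (1.13% of all 9252), by 11 at the middle ones and by 0 at the lowest. All 10 libraries were below every control for 32, 65 and 21 genes at the highest, middle and lowest concentrations.

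In the authors' deposited table, all 83 genes had at least 1 transcript among the 13326 transcripts tested. At an adjusted p under 0.05 the authors' deposited table has a transcript higher than in the control for 63 of the 83 at 1.08 g/L unweathered, where this held for 3.13% of all genes in it, and for 53 at 2.68 g/L weathered (1.19%). In the lower groups the authors' deposited table has 0 (0.0406%) and 6 (0.233%) for increasing unweathered and 2 (0.173%) and 3 (0.102%) for increasing weathered concentrations, and 0 lower in any group. These are the same contrasts as those of the rule.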

How the data were processed

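Whole-body RNA of mysids was sequenced in 35 libraries. Reads were trimmed with Trimmomatic 0.38 and the authors also used kallisto and DESeq2, per the submitters' processing notes; the sources used here do not name the assembly's version. Per the file headers, each deposited library file holds an estimated count, a TPM value and transcript lengths (as used by the quantifier) per Trinity transcript. The 35 columns of a deposited table that joins the estimated counts were not used. The authors' deposited comparison tables give a log2 fold change and an adjusted p-value per transcript.

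Estimated counts were summed per gene and scaled to the library total (CPM). Differences are of mean log2(CPM + 0.5). Counts were rounded for edgeR 4.0.16 (quasi-likelihood test, TMM, filterByExpr with a minimum count of 10, 1 mean per group, 35 libraries), with Benjamini-Hochberg adjustment over all genes tested. Isoform shares were fitted with limma 3.58.1 as log2 odds with 0.5 added, for genes with a mean of at least 10 counts in the leading isoform and in the others. DESeq2 1.42.0, limma-voom, other scalings, filters, single transcripts, left-out libraries, the compared groups alone and a replicate block were alternatives. The scripts (R 4.3.3, Python 3.11.15) were tested on simulated data.

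Named were the 2 genes with the largest value of the smaller difference from the control at the highest concentrations, and the highest and lowest between the leachates there among the others; others were named after their values were seen. Genes, lists and tests were chosen with earlier results of these data known. Same-numbered replicates were not treated as paired, and the median correlation of their deviations was 0.02. No sequence is shown, since no names or reference were used.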

Additional observations from a re-analysis of the deposited data

Results flagged for a closer look

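Within-group outliers were looked for with Dixon's test in 77 groups of 5 libraries and 5 were found. The 77 share libraries and genes and are not independent, so this number is not set against chance. Among the 77, the number of genes above the highest control library is fixed by the rule in the control and highest groups and could not be flagged. Unweathered replicate 1 at 0.54 g/L was far above the rest of its group in the median log2 difference of the 83 genes from the control mean (0.76, next 0.29) and in their summed level (8656 CPM, next 5976 CPM). Unweathered replicate 4 at 0.27 g/L was far above its group in the level of TRINITY_DN8241_c0_g1 (40.9 CPM, next 10.3 CPM) and in the leading isoform's share of TRINITY_DN734_c0_g1 (50.3%, next 25.7%). Control replicate 2 was far below the other controls in the latter share (2.67%, next 6.57%). In the first 2 libraries more of the 83 genes were above the highest control library than in any other library of their groups, at 75 and 56. Their TMM factors were 1.08 and 1.16, the highest of their groups. The part of these libraries in the group values was measured only by leaving out replicate 1 at 0.54 g/L.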

How the results depend on the processing

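The number of genes that met the rule was 83 with TPM in place of CPM (66 of them among the 83), 96 and 75 with a CPM minimum of 1 and 10, 90 with single transcripts (65 shared), 62 under TMM scaling (37 shared) and 86 to 117 with 1 control or highest-concentration library left out. Leaving out a control or highest-concentration library loosens the criterion at the highest concentrations, so that more genes can meet it. The number was 85 without unweathered replicate 1 at 0.54 g/L. A further alternative left out weathered replicate 1 at 0.67 g/L, with the lowest TMM factor (0.77), and weathered replicate 3 at 1.34 g/L, with the lowest correlation with other libraries (median r 0.92); both left-out sets were chosen after seeing the data. It gave 78.

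At the highest concentrations DESeq2 called 22 of all genes, the fit without those 2 weathered libraries 119, and fits without 1 compared library 0 to 2, with 0 of the 83 called in each. At the middle concentrations the counts over all genes were 16 with DESeq2, 1 with the compared groups alone and 81 without the 2 libraries. At the nearest concentrations they were 150 with DESeq2, 16 with limma-voom, 0 with the compared groups alone, 20 without the 2 libraries and 0 to 36 with 1 library left out, and of the 83 DESeq2 called 6 and the fits with 1 library left out 0 to 2. The 2, and the 36 over all genes, came without weathered replicate 3 at 0.67 g/L, and the 0 over all genes without unweathered replicate 1 or 5 at 0.54 g/L.

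For isoform shares at 1.08 g/L unweathered, the compared groups alone gave 1 of the 83 and 1 of all genes, and leaving out 1 library gave 1 to 3 of the 83 and 2 to 10 of all genes. Of the 83, 1 was called without control replicate 2, 3 or 5 or unweathered replicate 3. At 2.68 g/L weathered these were 1 of all genes with the compared groups alone, and 1 to 2 of the 83 and 3 to 5 of all genes with 1 library left out.

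With the replicate number as a block the calls among the 83 were 0 in each of the 3 leachate comparisons and 2 and 1 for isoform shares; over all genes they were 0, 0 and 4, and 5 and 3 for isoform shares. The labels do not say whether the numbers pair the libraries, and the correlations cannot settle it. Of 25 same-numbered pairs 8 had a correlation over 0.1, in a range from -0.44 to 0.65. Of 35 libraries 8 were closest to their own number.

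TRINITY_DN8241_c0_g1 between the highest concentrations changed sign with 1 library left out (-0.15 to 0.29; -0.01 and -0.06 without unweathered replicates 2 and 5, -0.15 and -0.04 without weathered replicates 4 and 5). The cause of these changes was not tested.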
